A study of Oryza sativa with 14 samples.

Results

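Lignin is the phenolic polymer that stiffens and waterproofs plant cell walls, and its building blocks are made from phenylalanine along the phenylpropanoid route. Phenylalanine ammonia-lyase (PAL) makes cinnamic acid, cinnamate 4-hydroxylase (C4H) hydroxylates it, and 4-coumarate-CoA ligase (4CL) activates the product as a coenzyme A ester. Caffeoyl-CoA O-methyltransferase (CCoAOMT) methylates the ring. Cinnamoyl-CoA reductase (CCR) and cinnamyl-alcohol dehydrogenase (CAD) reduce the side chain to monolignols, which laccases and class III peroxidases oxidise in the wall. In grasses the same route also feeds flavonoids and the ferulate and coumarate esters of the wall.

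Genes of these enzymes were followed in RNA-seq of rice seedlings, in 3 libraries of osnat10, a line named after the RNA cytidine acetyltransferase OsNAT10, and in 3 libraries of wild type (WT) cultivar Kitaake. Both genotypes grew in Yoshida nutrient solution in a growth chamber under short days (10 h light). The sources used here state neither the kind of osnat10 allele nor the age of the seedlings. Members were all genes whose description names laccase, phenylalanine ammonia-lyase, 4-coumarate ligase, cinnamoyl-CoA reductase, cinnamyl-alcohol dehydrogenase, a caffeoyl or related enzyme, or cinnamate 4-hydroxylase. The rule took 74 of 38978 genes, and each fell into a single family. They included 11 PAL, 2 C4H, 11 4CL, 10 CCR, 12 CAD, 5 CCoAOMT and 22 laccase genes. Levels are RPKM (reads scaled to gene length and library size), so genes can be compared per length. In bulk seedlings, fewer cells of a type and less RNA per cell cannot be told apart.

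Of the 74 genes, 54 reached 0.5 RPKM in at least 3 of the 6 libraries and were tested. The other 20 were too low to test, and 8 of these (4 PAL, 2 CCR and 2 laccase genes) had no read in any library. Neither of the 2 C4H genes taken by description passed. A C4H gene described in other words would be missed, so the level of this step cannot be read from them. OsC4H (Os02g0467000) stood at 0.720, 0.421 and 0.874 RPKM in osnat10 libraries and at 0.312, 0.116 and 0.166 in WT libraries. C4H1 (Os02g0467600) stood at 0.296, 0.712 and 0.771 RPKM in osnat10 and 0.177, 0.467 and 0.496 in WT. The highest single value among the other 18 low genes was 0.807 RPKM, for OsLAC20 in osnat10 replicate 2. OsLAC10 had 10, 1 and 0 reads in the osnat10 libraries and 0 in each WT library, and OsCCR10 had 4, 2 and 2 reads against 0 in each WT library.

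Libraries held 13770857 to 14857980 reads in osnat10 and 13688628 to 15583778 in WT, as recovered from the RPKM steps. The 74 genes took 0.594%, 0.613% and 0.598% of the reads in osnat10 replicates 1, 2 and 3, and 0.591%, 0.432% and 0.369% in WT replicates 1, 2 and 3. A tested member had a median of 280 to 303.5 reads in an osnat10 library and of 163 to 277.5 in a WT library. WT replicate 1 stood apart from the other WT libraries in light-harvesting genes. The summed level of 19 leaf and light-harvesting genes was 4089, 3626 and 3901 RPKM in osnat10, and 11950, 809 and 534 RPKM in WT replicates 1, 2 and 3. Of these 19 genes, 5 had no read in any library. Among these 5 is GHD7, a heading date gene taken only through words in its description. It is not a light-harvesting gene and adds nothing to the sums. Root markers differed too, with RCc3 at 534, 667 and 568 RPKM in osnat10 and 320, 245 and 107 in WT. RCc2 stood at 51.0, 91.4 and 77.4 RPKM in osnat10 and at 36.2, 25.1 and 19.5 in WT. The root silicon transporter genes LSI1 and LSI2 overlapped between genotypes (145 to 186 and 85.1 to 124 RPKM in osnat10, 169 to 291 and 96.5 to 181 in WT). The 4 root markers summed to 855 to 989 RPKM in osnat10 and 407 to 743 in WT. The part of leaf or root RNA in the results below was not tested. No gene row was named for OsNAT10 by symbol or description, so its own level was not analysed here.

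The question for these genes was whether their RNA differs between osnat10 and WT. Most members had higher levels in osnat10, although no single member reached significance in limma over all 24380 tested genes. Of the 54 tested members, 39 had a positive log2 fold change (72.2%, against 59.9% of all tested genes), and the median was 0.66 against 0.11 for all tested genes. At an adjusted p under 0.05, 0 members were called higher (0.123% of all genes were) and 0 lower (0.0287%). At an unadjusted p under 0.05, 18 members were higher (33.3%, against 13.6% of all genes) and 1 was lower (1.85%, against 5.69%). In 18 members every osnat10 library lay above every WT library (33.3%, against 17.2% of all genes), and in 1 member every osnat10 library lay below (1.85%, against 7.79%). By family, the 18 with an unadjusted p under 0.05 and a higher level included 7 laccase, 3 PAL, 2 4CL, 2 CAD, 2 CCoAOMT and 1 CCR genes. ROMT-27 and OsLAC21, which are in both counts of 18, reached 0.5 RPKM only in the osnat10 libraries. The filter itself thus placed them above WT.

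The authors' deposited table gave an adjusted p to 58 members. It called 0 of them higher and 1 lower at 0.05, while 2.42% of all genes with a deposited adjusted p were called higher and 3.79% lower. Of the 54 members tested in limma, 34 had a positive log2 fold change in the authors' deposited table, against 39 in limma. The called gene was OsCAD8B, described with the other dehydrogenases. OsPAL02 and OsOMT26 had an adjusted p of 0.0513 and 0.0522 in the authors' deposited table.

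**Figure D1:**
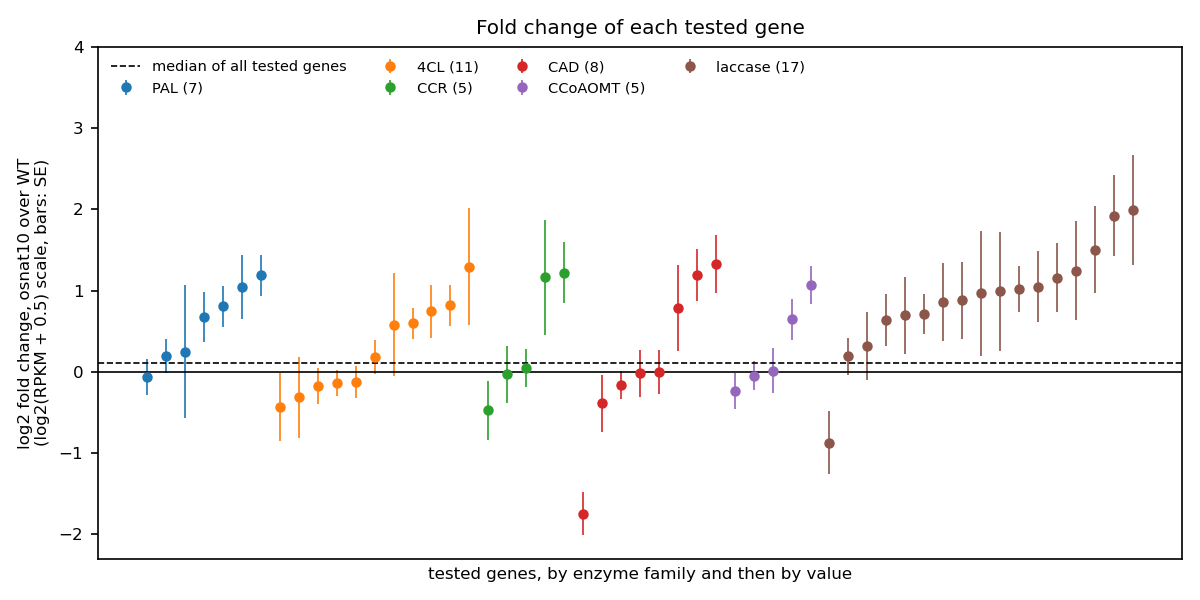
Log2 fold change of osnat10 over WT on the log2(RPKM + 0.5) scale for 53 of the 54 tested genes, 1 point per gene with its standard error from limma, coloured by enzyme family. The dashed line is the median of all tested genes (0.11); 16 of 17 laccases and 6 of 7 PAL genes lie above 0, while 4CL, CCR, CAD and CCoAOMT genes lie on both sides.

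The entry enzyme PAL was dominated by a single gene. OsPAL (Os02g0626100) stood at 698, 682 and 682 RPKM in osnat10 and at 658, 643 and 509 RPKM in WT. The osnat10 values lay above the WT values, by a narrow margin over WT replicates 1 and 2 (log2 fold change 0.20, SE 0.21, limma adjusted p = 0.65). This gene made up 74.9% ± 1.25 of the summed PAL level in osnat10 and 81.9% ± 4.28 in WT (SD, n = 3 each).

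The less abundant PAL genes are given next. The second OsPAL gene (Os02g0626400) stood at 138, 153 and 150 RPKM in osnat10, against 125, 71.6 and 65.2 in WT. OsPAL02 (Os04g0518100) stood at 41.2, 47.5 and 44.2 RPKM in osnat10, against 28.3, 17.4 and 14.2 in WT. Both were above WT in every osnat10 library, and WT replicate 1 was in each case the WT library nearest to osnat10. OsPAL02 averaged 44.3 ± 3.15 RPKM in osnat10 and 19.98 ± 7.38 in WT (SD, n = 3 each; log2 fold change 1.19, SE 0.25, limma adjusted p = 0.092). OsPAL04 (Os05g0427400) stood at 19.0, 19.7 and 17.9 RPKM in osnat10 and at 18.1, 6.90 and 5.47 in WT, so that WT replicate 1 lay within the osnat10 range. OsPAL03 (Os12g0520200) was the 1 tested PAL gene with a negative limma fold change, at 7.86, 11.9 and 10.00 RPKM in osnat10 and 9.26, 12.6 and 9.14 in WT. The direction of OsPAL07 depended on the measure. Its limma log2 fold change was 0.25 (SE 0.82), while its mean was 2.28 RPKM in osnat10 and 3.23 in WT. In the authors' deposited table its log2 fold change was -0.73. The summed level of all PAL genes was 918 ± 4.81 RPKM in osnat10 and 739 ± 125 in WT (SD, n = 3 each).

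**Figure D2:**
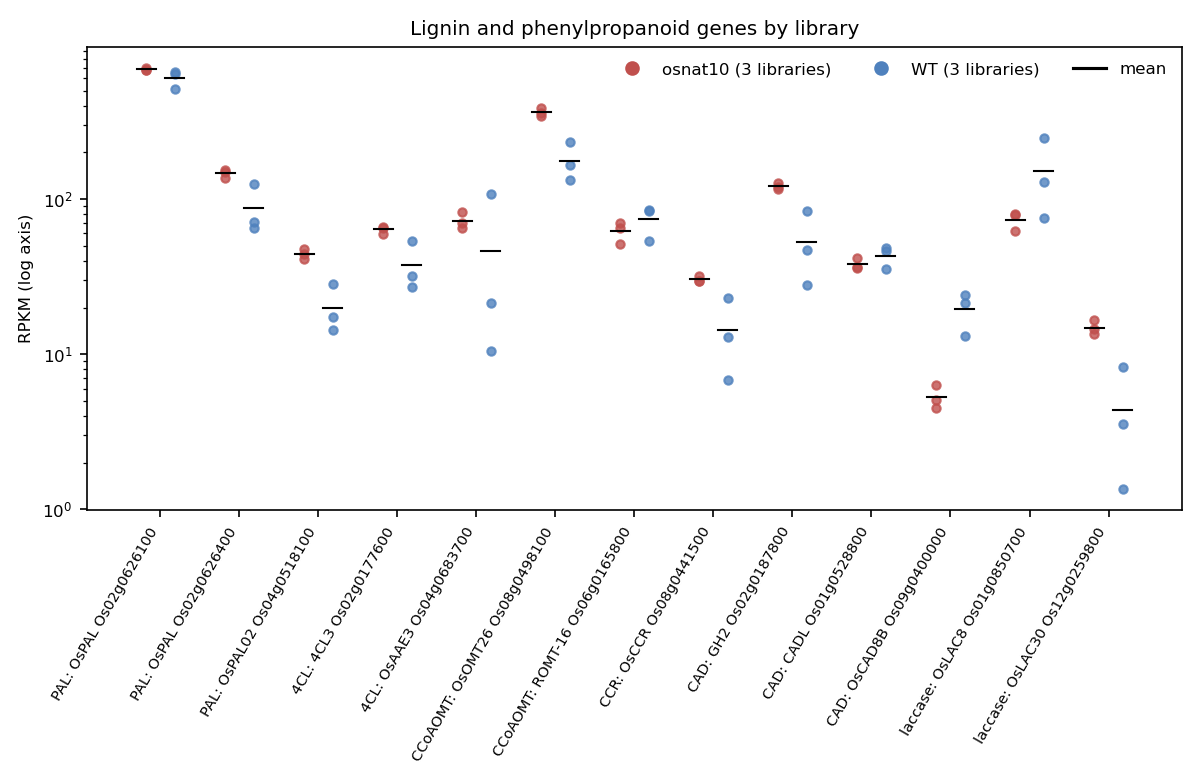
RPKM on a log axis of 13 lignin and phenylpropanoid genes in each library, osnat10 in red and WT in blue, with a line at each mean of 3 libraries. The osnat10 points cluster tightly and the WT points spread; OsCAD8B is the gene whose osnat10 points (4.53 to 6.38 RPKM) all lie below its WT points (13.0 to 23.9 RPKM).

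The 4CL descriptions cover 5 genes named as the ligase itself and 6 ligase-like genes, which belong to the same enzyme superfamily and whose substrates can differ. 4CL3 (Os02g0177600), annotated for lignin synthesis, was the most abundant of the ligases proper. It stood at 59.4, 65.0 and 66.5 RPKM in osnat10 and at 53.4, 31.7 and 27.1 in WT. All osnat10 values were above WT, with WT replicate 1 closest (log2 fold change 0.82, SE 0.25, limma adjusted p = 0.15).

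4CL4 and 4CL5, both also annotated for lignin synthesis, had negative fold changes. 4CL4 stood at 13.0, 16.2 and 14.2 RPKM in osnat10, against 15.2, 15.4 and 17.3 in WT, and 4CL5 at 3.49, 3.71 and 4.79 against 4.14, 4.64 and 4.84. The genotypes overlapped for both genes. 4CL2, annotated for flavonoid synthesis, spread widely in WT, with 3.93, 4.30 and 3.402 RPKM in osnat10 and 8.58, 1.28 and 1.02 in WT. Its WT replicate 1 lay above osnat10 and its other WT libraries below.

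The ligase-like gene OsAAE3 (Os04g0683700) showed the same layout at a higher level, with 82.1, 64.7 and 69.9 RPKM in osnat10 and 107, 21.2 and 10.5 in WT (log2 fold change 1.30, SE 0.72, limma adjusted p = 0.36). It was 2.23 without WT replicate 1 (limma adjusted p = 0.0080, called) and 0.58 without WT replicate 3. The ligase-like gene OsACS4 stood at 15.5, 18.02 and 19.4 RPKM in osnat10 and 12.8, 12.5 and 9.42 in WT, without overlap. OsACS2, the 4CL-family gene with the smallest p among negative fold changes, stood at 0.874, 1.71 and 0.564 RPKM in osnat10 and 2.72, 1.44 and 0.772 in WT. The fold changes of the 5 ligases proper had a median of 0.58 and those of the 6 ligase-like genes a median of 0.03. These medians were 1.05 and 0.08 without WT replicate 1, 0.23 and 0.14 without WT replicate 2, and 0.12 and -0.02 without WT replicate 3.

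The methyltransferases included some of the most abundant members after PAL. OsOMT26 (Os08g0498100), a caffeoyl-CoA O-methyltransferase, stood at 343, 385 and 358 RPKM in osnat10 and at 234, 132 and 165 in WT. Every osnat10 library lay above every WT library. OsOMT26 averaged 362 ± 21.02 RPKM in osnat10 and 177 ± 51.7 in WT, a ratio of 2.05 (SD, n = 3 each; log2 fold change 1.07, SE 0.24, limma adjusted p = 0.094).

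ROMT-16 (Os06g0165800) stood at 51.4, 70.3 and 65.3 RPKM in osnat10 and at 84.3, 53.9 and 84.8 in WT, and ROMT-17 (Os08g0498400) at 58.8, 56.4 and 52.6 in osnat10 and 69.0, 47.0 and 59.3 in WT. Both of these caffeoyl-CoA O-methyltransferase genes overlapped between genotypes. OsOMT26 therefore held 74.9% ± 0.224 of the summed CCoAOMT level in osnat10 and 56.3% ± 3.51 in WT (SD, n = 3 each). This share does not depend on how libraries are scaled. The low ROMT-27, next in locus number to ROMT-17, stood at 0.792, 0.517 and 0.5004 RPKM in osnat10 and 0.254, 0.105 and 0.250 in WT. It passed the filter only through osnat10.

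Among reductases, OsCCR (Os08g0441500), annotated for lignin formation, was the most abundant CCR gene in osnat10. It stood at 29.8, 31.8 and 29.8 RPKM in osnat10 and at 23.2, 12.9 and 6.87 in WT, without overlap (log2 fold change 1.22, SE 0.38, limma adjusted p = 0.15). OsCCR21 stood at 13.4, 18.01 and 9.70 RPKM in osnat10 and 12.5, 12.5 and 13.6 in WT, and OsCCR7 at 11.2, 7.95 and 8.08 in osnat10 and 8.06, 22.8 and 10.9 in WT. Both overlapped. OsCCR made up 45.8% to 53.3% of the summed CCR level in osnat10 libraries and 19.4% to 39.2% in WT libraries. SNL6, a CCR-like gene annotated for defence, stood at 4.41, 5.24 and 4.04 RPKM in osnat10 and 7.69, 4.72 and 2.67 in WT, again overlapping.

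Dehydrogenase genes lay on both sides of WT. GH2 (Os02g0187800), whose loss gives the gold hull and internode phenotype of rice, stood at 127, 119 and 116 RPKM in osnat10 and at 83.8, 46.7 and 27.8 in WT. All osnat10 values were above WT, with a ratio of means of 2.29 (log2 fold change 1.33, SE 0.35, limma adjusted p = 0.12). CADL (Os01g0528800) stood at 36.0, 36.8 and 41.9 RPKM in osnat10 and at 46.1, 48.1 and 35.3 in WT, and overlapped. GH2 therefore exceeded CADL 2.78- to 3.54-fold in osnat10 libraries, against ratios of 0.789 to 1.82 in WT libraries, and it made up 57.3% to 61.1% of the summed CAD level in osnat10 and 27.6% to 50.6% in WT.

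OsCAD8B (Os09g0400000) was the clearest single difference among all members, and it was lower. It stood at 4.53, 5.06 and 6.38 RPKM in osnat10 and at 13.0, 23.9 and 21.3 in WT, with no overlap. Its mean was 5.32 ± 0.954 RPKM in osnat10 and 19.4 ± 5.69 in WT (SD, n = 3 each), 3.65-fold higher in WT. It fell in the authors' deposited table (log2 fold change -1.95, SE 0.28, adjusted p = 2.54e-09). In limma the log2 fold change was -1.74 (SE 0.26) and the adjusted p = 0.055, just short of the threshold. Across the alternative settings the limma adjusted p ran from 0.0035 to 0.31.

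OsCAD8A (Os09g0399800), which lies beside OsCAD8B in RefSeq gene order, had higher values in osnat10. It stood at 33.1, 30.3 and 28.0 RPKM in osnat10 and at 17.04, 17.6 and 7.30 in WT, again without overlap (log2 fold change 1.19, SE 0.32, limma adjusted p = 0.12). Its adjusted p was 0.085 in the authors' deposited table. The level of OsCAD8A relative to OsCAD8B was 7.31, 5.99 and 4.39 in osnat10 libraries and 1.31, 0.737 and 0.342 in WT libraries. The 4 genes OsCAD8A to OsCAD8D follow each other in the RefSeq order. OsCAD8C stood at 1.54, 1.73 and 1.65 RPKM in osnat10 and 1.15, 3.46 and 2.84 in WT, and OsCAD8D at 2.58, 2.44 and 3.14 in osnat10 and 1.86, 3.42 and 3.05 in WT, both with overlap. The other two genes with locus numbers inside this run, Os09g0400100 and Os09g0400200, stayed below 0.4 RPKM in every library. How reads that match several genes were counted is not stated in the sources used here, and the likeness of these neighbours' sequences was not tested, so the split between them is uncertain.

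**Figure D3:**
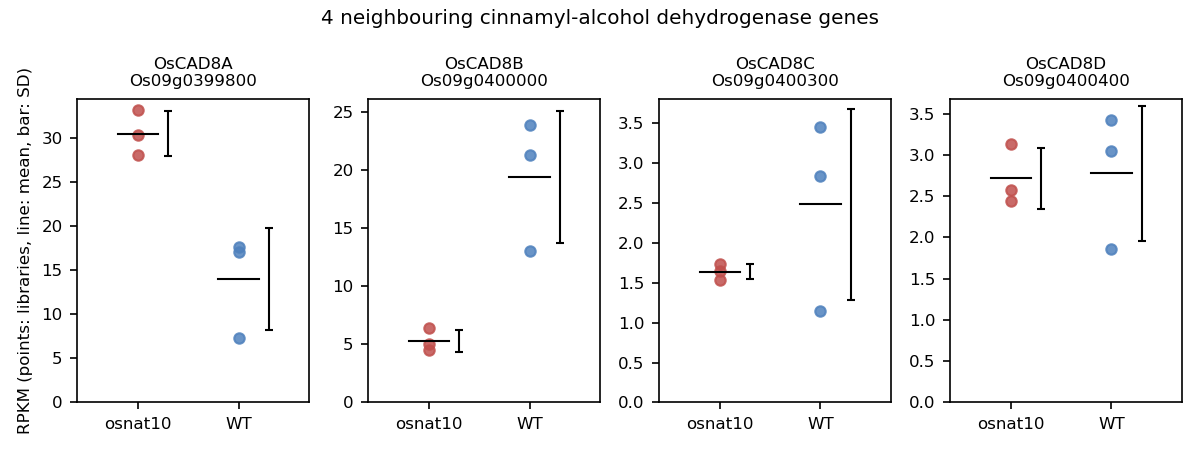
RPKM of the neighbouring genes OsCAD8A, OsCAD8B, OsCAD8C and OsCAD8D in osnat10 (left) and WT (right), with points for libraries, a line at the mean and a bar for the SD of 3 libraries. OsCAD8A is above WT and OsCAD8B below WT in every osnat10 library, while OsCAD8C and OsCAD8D overlap.

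Laccases, the copper oxidases at the end of the route, gave the family with the most positive values. Of 17 tested laccases, 16 had a positive log2 fold change, with a median of 0.97, and 7 had osnat10 values wholly above WT (41.2%, against 17.2% of all tested genes). Under median of ratios scaling 4 laccases did (23.5%, against 12.4%). Both counts include OsLAC21, which passed the filter only through osnat10. OsLAC30 (Os12g0259800) stood at 14.5, 16.5 and 13.5 RPKM in osnat10 and at 8.26, 3.55 and 1.35 in WT, a ratio of means of 3.39 (log2 fold change 1.92, SE 0.50, limma adjusted p = 0.12). OsLAC12 stood at 10.6, 10.3 and 10.8 RPKM in osnat10 and at 7.27, 5.13 and 3.16 in WT (log2 fold change 1.02, SE 0.28, limma adjusted p = 0.13). Both lay wholly above WT.

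OsLAC8 (Os01g0850700), the most abundant laccase and the 1 with a negative fold change, stood at 80.2, 78.7 and 62.6 RPKM in osnat10 and at 247, 130 and 76.0 in WT, with WT replicate 3 inside the osnat10 range (log2 fold change -0.87, SE 0.39, limma adjusted p = 0.27). It was -0.43 without WT replicate 1 and -1.28 without WT replicate 3. It held 34.6% to 42.6% of the summed laccase level in osnat10 libraries and 54.1% to 81.3% in WT libraries. With it, the summed laccase level was 188 ± 6.32 RPKM in osnat10 and 210 ± 105 in WT (SD, n = 3 each), although most laccase genes were higher in osnat10. By library the sum was 188.3, 193.5 and 180.9 RPKM in osnat10 and 331.8, 159.4 and 140.4 in WT. Only WT replicate 1 lay above the osnat10 libraries, while WT replicates 2 and 3 lay below all of them.

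A set of laccases was low in 1 WT library. OsLAC14 (Os05g0458500) stood at 12.5, 13.4 and 13.9 RPKM in osnat10 and at 11.6, 1.19 and 16.7 in WT. OsLAC (Os05g0458600) stood at 5.05, 6.21 and 6.72 RPKM in osnat10 and at 3.11, 0.437 and 5.45 in WT. OsLAC24 (Os11g0641800) stood at 4.67, 8.15 and 5.73 RPKM in osnat10 and at 1.91, 0 and 3.17 in WT. In these genes WT replicate 2 was far below the other WT libraries. OsLAC5 (Os01g0842500), second in laccase level, followed the same layout, with 13.9, 17.3 and 17.5 RPKM in osnat10 and 8.88, 3.32 and 13.9 in WT. In all, 7 of 17 tested laccases had their lowest value in WT replicate 2 (41.2%, against 16.7% of all tested genes). Another 8 had it in WT replicate 3, while OsLAC8 was lowest in osnat10 replicate 3.

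**Figure D4:**
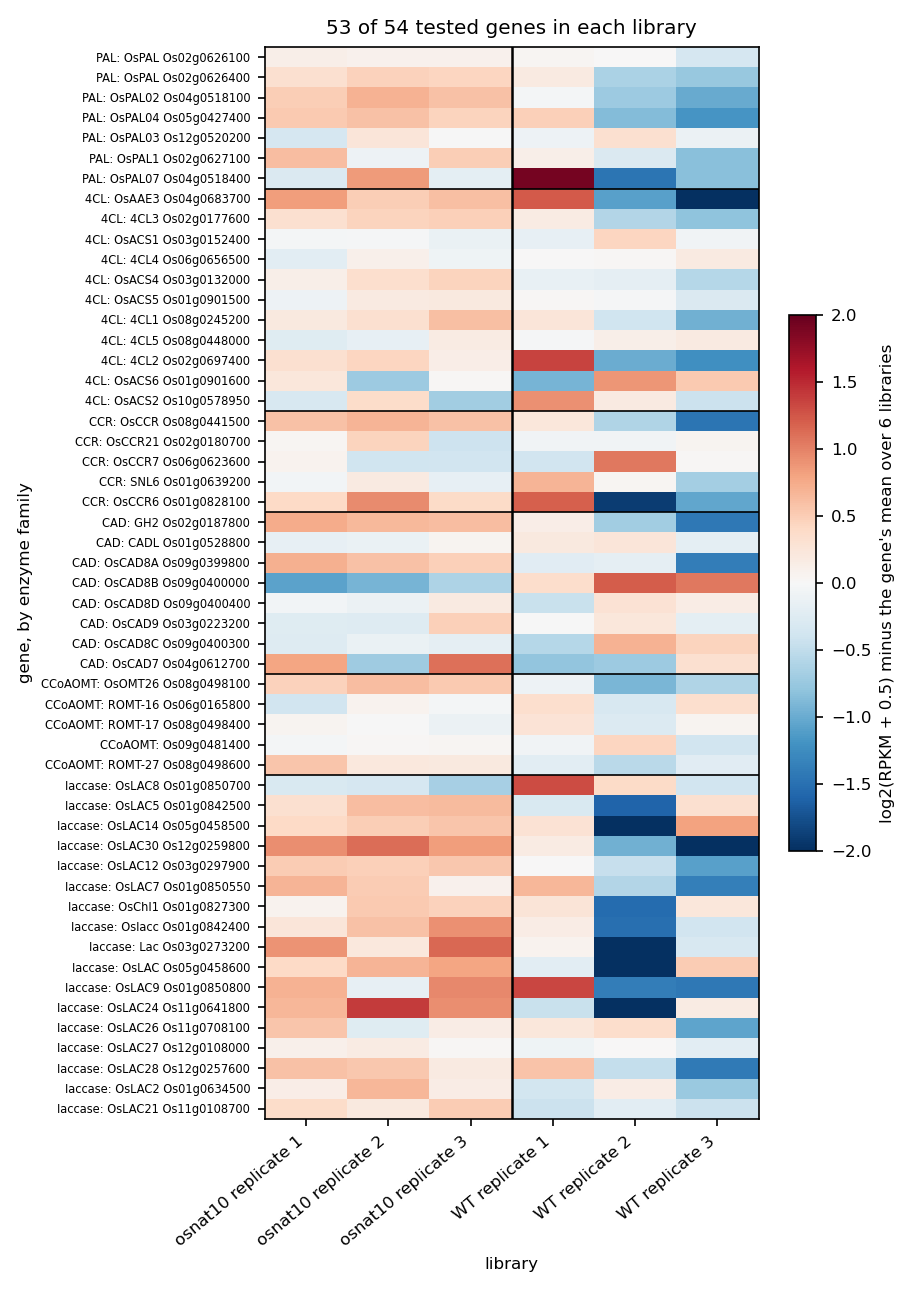
Each row is 1 gene, 53 of the 54 tested in all, and each column a library, osnat10 left of the line and WT right of it, coloured by log2(RPKM + 0.5) minus the gene's mean over the 6 libraries (colours end at -2 and 2). The osnat10 columns resemble each other, WT replicates 2 and 3 are mostly blue, and OsCAD8B (blue in osnat10, red in WT) and OsLAC8 (blue in osnat10) show the opposite colours to most rows.

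The spread lay mainly in WT. The median SD of the 54 genes on the log2 scale was 0.18 in osnat10 and 0.61 in WT, against 0.18 and 0.36 for all tested genes, and 45 of the 54 genes had the larger SD in WT. The WT libraries were not alike. The summed level of all members was 2467, 2563 and 2509 RPKM in osnat10 and 2389, 1695 and 1497 RPKM in WT replicates 1, 2 and 3, so that WT replicate 1 was closer to osnat10 than to the other WT libraries. The median member lay 0.13 below the osnat10 mean on the log2 scale in WT replicate 1, 0.77 below it in WT replicate 2 and 0.73 below it in WT replicate 3. For all tested genes these medians were 0.23, 0.02 and 0.02 below the osnat10 mean. By correlation of log2 levels over all tested genes, however, WT replicate 1 was also the WT library nearest to osnat10. It correlated with the osnat10 libraries at 0.931 to 0.945, WT replicate 2 at 0.887 to 0.895 and WT replicate 3 at 0.924 to 0.925. Its correlations with WT replicates 2 and 3 were 0.917 and 0.902. Nearness to osnat10 was thus not particular to the members. Of the 54 genes, 26 had their lowest value in WT replicate 3 (48.1%, against 18.6% of all genes) and 6 in WT replicate 1 (11.1%, against 36.0%).

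**Figure D5:**
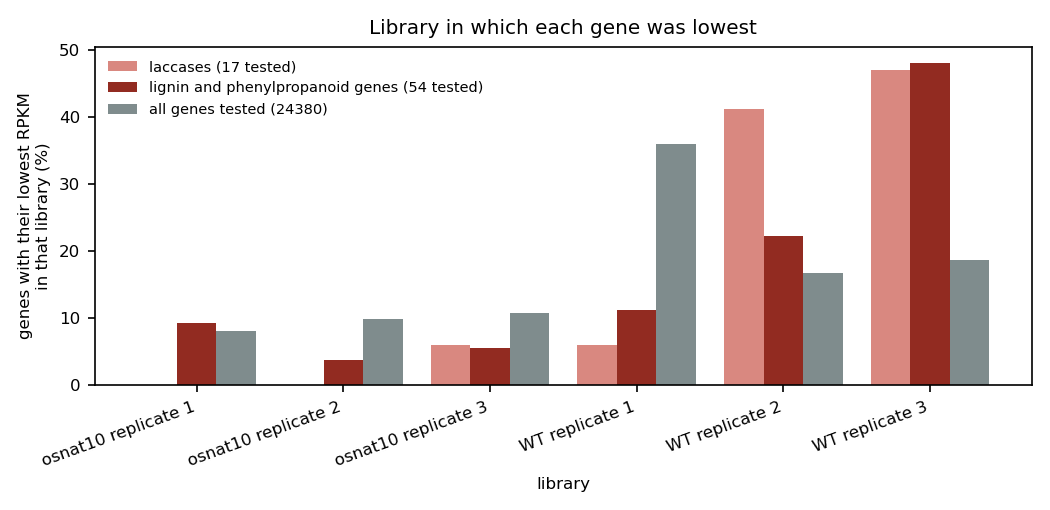
Share of genes whose lowest RPKM fell in each library, for the tested laccases, the 54 tested lignin and phenylpropanoid genes and all tested genes, osnat10 libraries left and WT libraries right. WT replicates 2 and 3 held the lowest value of 22.2% and 48.1% of the 54 genes, against 16.7% and 18.6% of all genes.

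The calls hung on these WT libraries. Without WT replicate 1, limma called 18 members higher (33.3%, against 6.28% of all genes) and 1 lower (4.84% of all genes). The 18 included OsPAL02 (adjusted p = 0.0038), 4CL3 (0.0065), OsOMT26 (0.0071) and GH2 (0.0078), and the lower one was OsCAD8B (0.0035). The 18 also included OsPAL (Os02g0626400), OsPAL04, 4CL1, 4CL2, OsAAE3, OsCCR, OsCCR6, OsCAD8A, OsLAC7, OsLAC9, OsLAC12, OsLAC30 and Oslacc. That fit keeps only the WT libraries with the lower levels, so genotype and the difference within WT cannot be told apart in it. Of 13 tested light-harvesting genes, 9 were called higher in the same fit. Without WT replicate 3, 1 member (OsCAD8A) was called higher and 1 (OsCAD8B) lower, against 3.63% and 0.406% of all genes. Leaving out WT replicate 2, or any 1 osnat10 library, gave 0 calls. With sample quality weights, which gave WT replicate 1 the least weight, 11 were called higher (3.46% of all genes) and 1 lower (2.09%).

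Scaling moved the comparison as well. Under median of ratios scaling the median of all tested genes was 0.01 and that of the members 0.58, so the members' median lay 0.57 above that of all genes, against 0.55 as deposited. OsCAD8B was then called lower (limma adjusted p = 0.043, with 0.234% of all genes called lower), as it was after quantile normalisation (adjusted p = 0.044, with 0.0984% of all genes). The count of members wholly above WT was 10 under this scaling (18.5%, against 12.4% of all genes), and 1 lay wholly below (14.1% of all genes). The 10 were OsPAL02, OsCCR, GH2, OsCAD8A, OsOMT26, ROMT-27, OsLAC12, OsLAC21, OsLAC24 and OsLAC30. Of these, ROMT-27 and OsLAC21 passed the filter only through osnat10, so their place above WT was largely set by the filter. Without WT replicate 1, 28 members lay wholly above (24.6% of all genes) and 3 wholly below (22.3%).

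Other genes of the pathway were taken by description or symbol, leaving out members. Of 5 hydroxycinnamoyl transferase and coumarate hydroxylase genes, all were tested and 0 called. OsC3'H1, the coumaroyl ester 3-hydroxylase, stood at 23.5, 24.9 and 26.3 RPKM in osnat10 and 14.9, 16.2 and 18.6 in WT (limma adjusted p = 0.12), and OsHCT2 at 85.6, 93.5 and 91.2 in osnat10 and 78.6, 51.4 and 45.8 in WT. Both lay wholly above WT. CYP84A5, the coniferaldehyde 5-hydroxylase of the syringyl branch, overlapped at 2.95, 2.19 and 4.66 RPKM in osnat10 and 3.65, 4.15 and 4.30 in WT. OsHCT1 overlapped too, at 64.9, 60.6 and 60.8 RPKM in osnat10 and 50.9, 80.3 and 65.3 in WT.

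The 25 tested genes matched by names of shikimate, chorismate, arogenate or related steps had a median log2 fold change of 0.23, with 0 called. Of these, 18 were positive (72.0%, against 59.9% of all tested genes). OsSK4, the most abundant of them, stood at 119, 128 and 108 RPKM in osnat10 and 169, 82.1 and 123 in WT. The 3-dehydroquinate synthase gene DHQS stood at 39.4, 44.9 and 42.2 RPKM in osnat10 and 36.2, 21.9 and 24.5 in WT. The arogenate dehydrogenase-like Os06g0708832 stood at 27.6, 25.5 and 32.6 RPKM in osnat10 and 17.7, 8.65 and 20.7 in WT. Both lay wholly above WT. Os06g0708832 was taken by the word arogenate and not as a step toward phenylalanine.

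In the flavonoid branch the 30 tested genes had a median of 0.17, with 16 positive (53.3%, against 59.9% of all tested genes) and 0 called. That median turned negative when WT replicate 2 was left out (-0.10) or WT replicate 3 (-0.03). Of these 30, 0 lay wholly above WT (17.2% of all tested genes did) and 4 wholly below (13.3%, against 7.79%). The chalcone isomerase gene gh1 stood at 109, 128 and 136 RPKM in osnat10 and 122, 94.8 and 79.8 in WT. Os03g0184550, similar to dihydroflavonol reductase, stood at 1.46, 1.13 and 2.24 RPKM in osnat10 and 4.002, 32.8 and 31.1 in WT. Os06g0472200, similar to isoflavone reductase, stood at 5.23, 5.42 and 5.79 RPKM in osnat10 and 11.4, 16.1 and 11.2 in WT (log2 fold change -1.14, limma adjusted p = 0.075).

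Some dirigent proteins guide the coupling of monolignol radicals. All 6 tested dirigent genes had a positive log2 fold change (median 1.53, 0 called in limma). Of all tested genes, 59.9% had a positive fold change. Of the 6, 4 lay wholly above WT as deposited, and 3 did under median of ratios scaling. Of all tested genes, 17.2% and 12.4% did. Os01g0155300 and Os10g0334500 overlapped between genotypes. Os10g0334500 stood at 4.23, 0.884 and 1.80 RPKM in osnat10 and 1.01, 2.64 and 1.38 in WT (log2 fold change 0.25, SE 0.485). Os11g0179700 stood at 84.1, 69.0 and 93.6 RPKM in osnat10 and 25.5, 11.3 and 3.28 in WT, and rose in the authors' deposited table (log2 fold change 2.44, adjusted p = 0.0026). Os10g0335000, annotated for lignin synthesis, stood at 68.6, 19.7 and 28.1 RPKM in osnat10 and 17.3, 5.43 and 2.76 in WT. Os07g0643800 stood at 2.99, 1.16 and 2.30 RPKM in osnat10 and 0.115, 0.0533 and 0.0507 in WT, and rose in the authors' deposited table (adjusted p = 5.77e-05). It reached 0.5 RPKM only in osnat10, so the filter used for limma itself placed it above WT. This gene counts among the 6 with a positive fold change and the 4 wholly above WT. In limma Os11g0179700, Os10g0335000 and Os07g0643800 had adjusted p of 0.086, 0.14 and 0.055.

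Secondary wall genes were searched by 12 symbols, of which 5 were found and 4 tested. All 4 lay wholly above WT, also under median of ratios scaling, and 0 were called in limma. Of all tested genes, 17.2% lay wholly above WT as deposited and 12.4% under that scaling. OsCesA4, a cellulose synthase of the secondary wall, stood at 53.96, 56.4 and 51.7 RPKM in osnat10 and 29.0, 20.4 and 32.3 in WT. BC1, the COBRA-like protein of brittle culm 1, stood at 13.1, 14.0 and 11.5 RPKM in osnat10 and 5.98, 4.27 and 4.61 in WT. OsMYB58/63, a MYB factor annotated for cellulose synthesis, stood at 5.63, 6.74 and 6.04 RPKM in osnat10 and 3.31, 1.28 and 0.488 in WT. The NAC factor OsSND2 stood at 9.00, 8.06 and 8.17 RPKM in osnat10 and 2.53, 2.29 and 5.25 in WT. Their limma adjusted p were 0.084, 0.057, 0.11 and 0.10, and in the authors' deposited table OsCesA4, BC1 and OsSND2 rose (adjusted p = 0.018, 0.00071 and 0.017). OsCesA4 and OsSND2 had WT replicate 3 as their highest WT library. Class III peroxidases, which share the last step with laccases, had 71 of 86 tested genes positive (82.6%, against 59.9% of all tested genes) and a median of 0.78. Of these, 42 lay wholly above WT (48.8%, against 17.2%), and 0 were called. OsPOD, the most abundant, stood at 224, 309 and 272 RPKM in osnat10 and 190, 130 and 78.3 in WT. The peroxidase prx127 stood at 13.4, 9.18 and 10.02 RPKM in osnat10 and 1.71, 0.681 and 0 in WT, and prx83 at 16.7, 16.5 and 18.2 in osnat10 and 8.21, 4.46 and 4.79 in WT. Of the xylem and vascular list, 3 of 8 genes were tested, with a median of 0.08. The callose synthase gene CRR1, the most abundant, stood at 35.3, 31.9 and 32.6 RPKM in osnat10 and 23.3, 36.6 and 36.1 in WT, with overlap. Os02g0156300, similar to a BRI1-like kinase, stood at 1.98, 2.01 and 2.11 RPKM in osnat10 and 0.754, 1.30 and 0.513 in WT, without overlap.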

How the data were processed

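The 6 RNA-seq libraries of 14 labelled samples were used, while 8 acRIP-seq libraries were left aside. The submitters' processing notes name STAR 2.5.3a, deepTools, DESeq2 and build IRGSP-1.0 without roles. RPKM for each gene were deposited by the authors. In the authors' deposited comparison of 32190 genes, the log2 fold change with its SE, the p-value and the adjusted p-value carry DESeq2 column names. Of 1681 genes called in it, 1681 had a log2 fold change of the same sign as the difference in mean RPKM. A deposited Wald score was left aside, and the authors' mean normalised signal served to recover reads, whole within 0.05 reads in 99.5% of values above 0.

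Values were tested as log2(RPKM + 0.5), which understates fold changes of low genes, with limma 3.58.1 in R 4.3.3 (empirical Bayes, intensity trend) over the 24380 genes with 0.5 RPKM or more in at least 3 libraries. P-values were adjusted by Benjamini-Hochberg over all of them, and genes were called at an adjusted p under 0.05. The test was checked on simulated data with the same spread in both genotypes. In the real data the median SD of all tested genes was 0.18 in osnat10 and 0.36 in WT. The check therefore does not cover unequal spread. Nothing states that replicates were separate plantings, so p-values measure the spread between these libraries. Members and lists were chosen with earlier results of these data known. Described genes were those with an adjusted p under 0.05 in limma or the deposited table, and in each family the 2 most abundant and the smallest p in each direction. In the other lists they were the 2 smallest p and the most abundant gene, except that light-harvesting genes were not described singly. The values of 1 member are not reported here. The remaining genes printed were chosen after their values were seen. Neighbours came from RefSeq gene order (assembly ASM3414082v1), without coordinates. Whether reads were assigned by strand is not given. Tables and plots used Python 3.11.15, pandas 2.3.3, numpy 2.4.6 and matplotlib 3.10.9.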

Additional observations from a re-analysis of the deposited data

How the results depend on the processing

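As deposited, 30 genes were called higher and 7 lower over all genes, and 0 and 0 among the lignin and phenylpropanoid genes. The number of all genes called higher was 19 with a pseudocount of 0.1, 51 under median of ratios scaling and 843 with sample quality weights. The number called lower was 57 under median of ratios scaling, 24 after quantile normalisation and 509 with sample quality weights. Leaving out 1 library at a time gave 8 to 1532 genes called higher and 0 to 1181 lower over all genes, and 0 to 18 higher and 0 to 1 lower among the members. Among members, 1 was lower with quantile normalisation, 1 with median of ratios scaling, and 11 were higher and 1 lower with sample quality weights. Chosen after seeing the data, the count of members wholly above WT was 28 without WT replicate 1 and 10 under median of ratios scaling, against 18, and the count wholly below was 3 without WT replicate 1, against 1. The cause was not tested.

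The members' median log2 fold change ran from 0.43 (without WT replicate 3) to 0.80 (without WT replicate 1). Of 265 comparisons for 19 named members, 237 kept their direction and side of the threshold, 22 passed the threshold and 6 changed sign. Those 6 were OsCCR21, at -0.06 under median of ratios scaling, -0.05 after quantile normalisation, -0.04 with sample quality weights and -0.16 without osnat10 replicate 2, and OsPAL03, at 0.09 without osnat10 replicate 1 and 0.09 without WT replicate 2. Leaving out 1 library at a time gave -0.16 to 0.27 for OsCCR21 and -0.2 to 0.09 for OsPAL03. With the replicate block, 16 genes were called higher and 4 lower over all genes and 0 members. The replicate numbers gave no clear sign of pairing, with correlations of deviations of -0.06, -0.03 and 0.13 for numbers 1, 2 and 3. Pairs of unlike numbers gave -0.11 to 0.12. With 3 libraries per genotype these values cannot settle whether the libraries were paired. The 20 untested members fell short of 0.5 RPKM in 3 libraries, and 8 of them had no read. Without the filter, 66 members were tested and 0 were called. The authors' deposited table gave an adjusted p to some of the 20, among them OsC4H and C4H1, both above 0.05.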

Other observations

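The neighbouring laccase loci Os01g0850550, Os01g0850700 and Os01g0850800 (by locus number) differed in direction. OsLAC7 (Os01g0850550) stood at 11.1, 9.79 and 7.15 RPKM in osnat10 and at 10.9, 4.32 and 2.29 in WT. OsLAC9 (Os01g0850800) stood at 5.09, 2.58 and 6.19 RPKM in osnat10 and at 8.17, 0.819 and 0.779 in WT. OsLAC8 between them had values of 80.2, 78.7 and 62.6 RPKM in osnat10 and 247, 130 and 76.0 in WT. All 3 genes had their highest WT value in replicate 1, the library in which light-harvesting genes were high. None was called in limma over all libraries. OsCCR6 (Os01g0828100) had the same layout, with 4.24, 6.45 and 4.21 RPKM in osnat10 and 7.76, 0.459 and 1.25 in WT, and so had OsPAL07, with 1.46, 3.79 and 1.59 RPKM in osnat10 and 8.48, 0.370 and 0.841 in WT.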
